A study of Mus musculus with 4 samples.

Results

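The lung transcriptome of castrated mice that inhaled saline was set against that of sham-operated mice that inhaled saline. The comparison took 2 of the 4 arrays of the series, those titled ORX/PBS and sham/PBS, and covered 19427 of 26283 named genes, which were those well above background on both. The series crossed surgery, sham or ORX, with an inhaled agent, PBS or PPE, in C57BL/6J mice. Every array took a pool of lung RNA from 5 mice, the labels place the arrays at 3 weeks, and the age of the mice is not given in the sources used here. The title speaks of testosterone deficiency and of elastase, so ORX is taken to mean orchiectomy and PPE porcine pancreatic elastase. Sham/PBS is thus the pool of mice with intact testes and no elastase, and ORX/PBS the pool of castrated mice with no elastase. Sham/PPE and ORX/PPE are the same surgeries with elastase, share no array with the first pair, and are given beside it throughout. Each group was 1 array, so no difference below has a replicate check and no p-value is given. A pool of 5 mice hides how the mice differed among themselves.

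Castration removes the main source of testosterone, a steroid hormone that alters transcription in its target cells, and lung is among the tissues that respond to it. Lung tissue also holds a circadian clock, in which Arntl and Clock drive the Per, Cry and Nr1d repressors and the PAR bZIP factors Dbp, Tef and Hlf, so that the level of each depends on the hour of sampling. A heat shock response, driven by Hsf1, raises Hsp70 family chaperones within a short time of heat or other protein stress. In bulk lung, fewer cells of a type and less RNA per cell cannot be told apart.

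Levels are log2 of the processed signal relative to the 75th percentile of the same array, and differences are ORX/PBS minus sham/PBS on that scale unless another pair is named. The 75th percentile of the signal was 850.1 on sham/PBS, 993.8 on ORX/PBS, 824.3 on sham/PPE and 855.6 on ORX/PPE, and 0 spots were saturated. All arrays lay on 1 slide scanned on 1 day. Probes spotted many times on an array had a median SD of at most 0.0361, or 0.0511 for a difference, a figure for spots that says nothing of mice. Markers of lung epithelium were measured, with 20 of 20 listed genes of alveolar type 2 cells, 18 of 18 of alveolar type 1 cells, 17 of 17 of club cells and 29 of 29 of ciliated cells. The alveolar lists had median differences of 0.11 for type 2 and 0.02 for type 1 cells. The 4 listed Y-linked genes were measured on both arrays, with a median of -0.04.

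A difference of at least 2-fold, 1 on the log2 scale, counted as a call. By that rule 83 genes (0.427%) were higher and 191 (0.983%) lower in ORX/PBS than in sham/PBS. Of all 19427 genes 9539 lay above 0 and 9888 below, and counts in the gene lists below are to be read beside these shares. Centring each array on its median in place of the 75th percentile gave 109 higher and 160 lower, so the lower share of the calls was 69.7% as reported and 59.5% after that centring. Under PPE, 46 of 19097 genes (0.241%) were higher and 201 (1.05%) lower in ORX than in sham lungs. Most calls were of dim genes. The fifth of genes with the lowest level held 38 of the higher and 95 of the lower calls, and 0 of either remained past 2-fold when the background was corrected with normexp, a model of signal over noise, in place of the scanner software's own subtraction. In the fifth with the highest level, 7 higher and 18 lower calls became 7 and 17. Normexp values are therefore given beside the named calls that it ends.

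**Figure D1:**
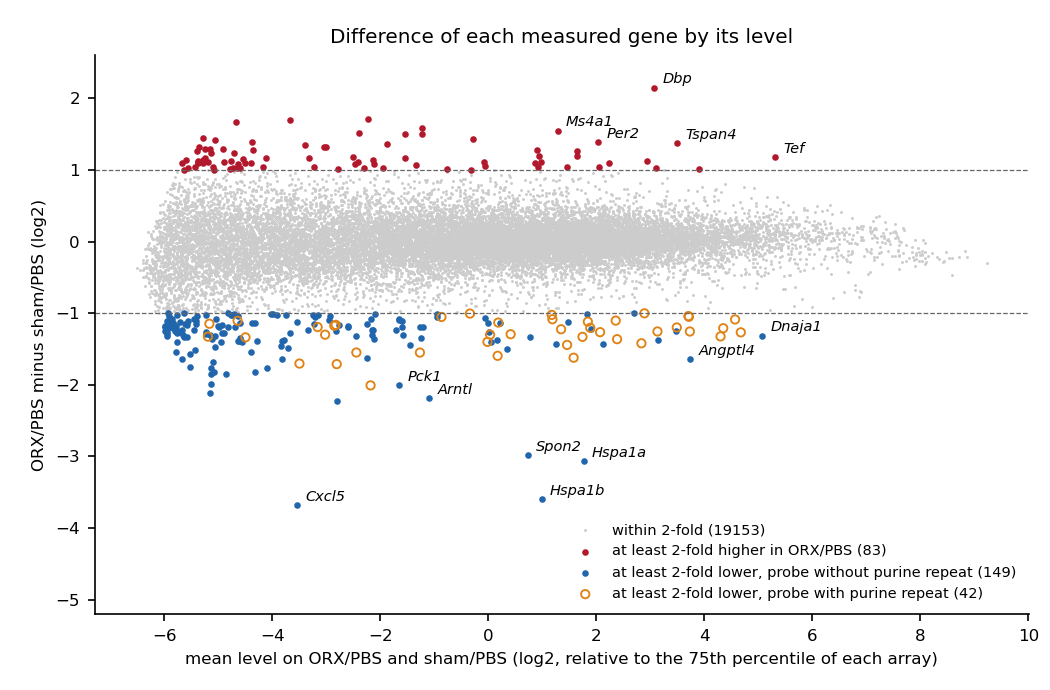
Each point is 1 of 19427 genes, with its mean level on the 2 PBS arrays on the x axis (log2, relative to the 75th percentile) and ORX/PBS minus sham/PBS on the y axis (log2); dashed lines mark 2-fold. Points past 2-fold crowd at the dim end, and open orange circles are the 42 lower genes whose probe holds a purine repeat, many of them at middle and high levels.

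The sham/PBS array lay farthest from the others, by a small margin. Over 18826 genes above background on all 4 arrays, the SD of the difference was 0.330 between sham/PBS and ORX/PBS, 0.323 between sham/PBS and sham/PPE, and 0.354 between sham/PBS and ORX/PPE. The pairs without it had 0.315 between sham/PPE and ORX/PPE, 0.294 between sham/PPE and ORX/PBS, and 0.257 between ORX/PBS and ORX/PPE. The called genes were chosen for a gap between the PBS arrays, so only the place of the PPE arrays within that gap is free. Of the 165 lower genes above background on all 4 arrays, both PPE arrays lay nearer to ORX/PBS for 75 and nearer to sham/PBS for 31. Of the 81 higher genes, both lay nearer to ORX/PBS for 40 and nearer to sham/PBS for 10. Over all 18826 genes the same lean was present, with both nearer to ORX/PBS for 7263 and nearer to sham/PBS for 3723. For all genes sham/PBS was the highest array in 29.2% and the lowest in 32.2%. With 1 array a group, surgery and whatever else differed between these pools cannot be told apart.

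Heat shock genes stood lower in ORX/PBS, and Hspa1b and Hspa1a were among the 4 lowest of all genes. Of 24 measured members 0 were higher, 6 were lower, against 0.983% of all genes, and 21 lay below 0. Their median was -0.42, against -0.01 for all measured genes. Under PPE the median was -0.36 and 2 members were lower. The binding sequence of Hsf1, the heat shock element, was looked for in RefSeq promoters of assembly GRCm38.p6, from 250 bases before to 50 after the start of each gene, as GAANNTTC or TTCNNGAA on either strand. It stood in 12 of the 19 listed genes with a promoter in the table (63.2%), against 17% of 27025 genes in the whole table and 14.6% of the measured genes. A match is a description of the letters and not a shown binding site. Stretches of 3 promoters are printed for genes that were lower, Hspa1b at chr17:34959239-34959398 on the minus strand, Hsph1 at chr5:149636316-149636435 on the minus strand and Dnaja1 at chr4:40722308-40722427 on the plus strand, each read 5′ to 3′ with the element in capitals.
Hspa1b: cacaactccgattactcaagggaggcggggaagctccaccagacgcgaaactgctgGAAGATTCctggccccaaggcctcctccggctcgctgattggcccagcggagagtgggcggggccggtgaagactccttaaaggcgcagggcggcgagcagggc
Hsph1: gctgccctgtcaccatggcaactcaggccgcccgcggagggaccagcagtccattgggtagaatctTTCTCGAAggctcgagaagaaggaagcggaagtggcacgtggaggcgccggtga
Dnaja1: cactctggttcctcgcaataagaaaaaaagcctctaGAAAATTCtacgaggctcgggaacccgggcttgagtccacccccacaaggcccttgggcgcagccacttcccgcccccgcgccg

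The capitals begin 104 bases before the start of Hspa1b, 54 before that of Hsph1 and 124 before that of Dnaja1. Hspa1b, a stress-inducible Hsp70, had levels of 2.78 on sham/PBS, -0.81 on ORX/PBS, 1.11 on sham/PPE and -0.41 on ORX/PPE. Its difference of -3.59, a 12-fold lower signal, was -3.43 with normexp, and under PPE it was -1.51. Both ORX arrays were thus below both sham arrays. Hspa1a, the neighbouring Hsp70 gene, had levels of 3.30, 0.24, 1.62 and 0.60 in the same order, a difference of -3.06, and -1.02 under PPE. The 2 genes are near-identical copies, so which of them a probe reports is uncertain. Hsph1, the Hsp110 exchange factor that works with Hsp70, stood at 3.83 on sham/PBS, 2.45 on ORX/PBS, 3.28 on sham/PPE and 2.32 on ORX/PPE. Its difference was -1.38, and 2 other probes of it had a median of -1.38 as well.

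The co-chaperones were highest on sham/PBS as well. Dnaja1, an Hsp40 partner of Hsp70, had levels of 5.73 on sham/PBS, 4.42 on ORX/PBS, 5.19 on sham/PPE and 4.68 on ORX/PPE, a difference of -1.31 and of -0.51 under PPE. Dnajb1, another Hsp40 protein, had levels of 4.10, 2.86, 3.17 and 3.22 in that order, so its difference of -1.25 rested on a high sham/PBS array and was 0.05 under PPE. Chordc1, a co-chaperone of Hsp90, likewise stood at 2.03, 0.91, 1.27 and 1.11, a difference of -1.12 with another probe at -1.25. Members within 2-fold but below 0 included the Hsp70 and Hsp90 adaptor Stip1 at -0.71, the constitutive Hsp70 Hspa8 at -0.63, the co-chaperone Bag3 at -0.52, the Hsp90 genes Hsp90aa1 and Hsp90ab1 at -0.46 and -0.42, and the mitochondrial chaperonin Hspd1 at -0.42. Among factors of the response, Hsf1 was at -0.24 and Hsf2 at 0.00. Hspb1, a small heat shock protein, was the highest member at 0.18 although its promoter window holds the element too.

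Genes of endoplasmic reticulum stress, which include its chaperones and also factors such as Atf4, Ddit3 and Xbp1, differed less. Of 17 measured members of that list 0 passed 2-fold and 15 lay below 0, with a median of -0.17 and one of -0.30 under PPE. Creld2 was the lowest at -0.51 and the calcium-binding chaperone Calr the highest at 0.08. Immediate early genes, which respond to stimuli and to tissue handling, had 0 of 32 members past 2-fold and a median of -0.21, running from the zinc finger factor Klf4 at -0.65 to Ier3 at 0.92.

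Clock genes differed in both directions, and most members were within 2-fold. The PAR bZIP outputs and 3 repressors were higher in ORX/PBS, and Arntl, Npas2 and Nfil3 were lower. Of 8 measured output genes 3 were higher and 0 lower, with a median of 0.73. Of 14 repressors 3 were higher and 1 lower, with a median of 0.24, and of 6 activators 0 were higher and 2 lower. The activators' median of -0.14 came to 0.01 when all probes of a gene were averaged, so no direction is given for that list. These clock sequences were searched in the same promoters on both strands: the E-box CACGTG, bound by Arntl with Clock, the D-box TTATGTAA or TTACGTAA, bound by Dbp, Tef, Hlf and Nfil3, and the ROR element core AGGTCA, bound by ROR and Nr1d factors. Of 22 clock genes with a promoter in the table, 5 (22.7%) held an E-box against 8.09% of all genes, 1 (4.55%) a D-box against 1.23%, and 6 (27.3%) an ROR core against 18.1%. Among the measured genes these shares were 10.2%, 1.06% and 16.4%. A gene may have several promoters. Counted per promoter, 18.8% of the clock promoters held an E-box against 7.15% of all, 3.13% a D-box against 1.06%, and 18.8% an ROR core against 16.3%. Arntl holds an ROR core too, in the second of its promoters in the table and 32 bases after that start. Stretches are shown for 4 other clock genes past 2-fold that hold a match, Tef at chr15:81802493-81802612 on the plus strand with an E-box, Per3 at chr4:151044766-151044885 on the minus strand with a pair of D-boxes, and Nr1d2 at chr14:18239107-18239226 and Nfil3 at chr13:52981040-52981159, both on the minus strand, with an ROR core. Capitals mark the match, which in Nfil3 lies on the other strand.
Tef: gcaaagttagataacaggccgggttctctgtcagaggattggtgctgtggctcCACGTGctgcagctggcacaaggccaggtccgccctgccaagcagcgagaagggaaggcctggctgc
Per3: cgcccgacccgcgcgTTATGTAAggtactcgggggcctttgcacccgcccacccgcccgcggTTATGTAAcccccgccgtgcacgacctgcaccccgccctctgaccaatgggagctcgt
Nr1d2: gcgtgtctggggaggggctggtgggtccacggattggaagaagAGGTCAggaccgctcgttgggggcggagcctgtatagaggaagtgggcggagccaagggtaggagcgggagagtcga
Nfil3: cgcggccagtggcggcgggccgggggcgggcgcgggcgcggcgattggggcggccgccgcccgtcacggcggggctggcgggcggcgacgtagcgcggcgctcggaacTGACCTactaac

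Dbp, an output factor with a strong daily rhythm in many tissues, was the highest gene of the comparison. Its levels were 2.0 on sham/PBS, 4.15 on ORX/PBS, 3.62 on sham/PPE and 3.95 on ORX/PPE, a 4.43-fold difference (2.15 on the log2 scale, another probe 2.41). Only sham/PBS was low, and under PPE the difference was 0.33. Tef, whose E-box is shown above, had levels of 4.71, 5.89, 5.20 and 5.87 in that order, a difference of 1.18 and of 0.66 under PPE. Hlf, the remaining PAR bZIP factor, had levels of -1.97, -0.48, -1.43 and -0.55, a difference of 1.49 and of 0.89 under PPE. In the same list the cell cycle kinase Wee1 was at 0.84, the deubiquitinase Usp2 at 0.62 and Tsc22d3, which is also a glucocorticoid target, the lowest at -0.26.

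Among the repressors Per2 had levels of 1.35 on sham/PBS, 2.74 on ORX/PBS, 1.49 on sham/PPE and 2.72 on ORX/PPE. Both ORX arrays were above both sham arrays, with differences of 1.39 and 1.23 under PPE, although another probe of Per2 gave 0.66 under PBS. Per3 stood at -1.0, 0.43, -0.29 and 0.38 in that order, a difference of 1.42, and of 0.67 under PPE. Nr1d2, a nuclear receptor that represses Arntl, stood at 1.68, 2.78, 2.37 and 2.83, a difference of 1.1. The related Nr1d1 was at -0.09 under PBS and -1.18 under PPE. Cry1 was at 0.64 and 1.23 under PBS and PPE, Cry2 at 0.37 under PBS, Bhlhe41 at 0.63, Bhlhe40 at 0.45 and Per1 at 0.02. Ciart, whose window holds 3 E-boxes, was at -0.12. Nfil3, a bZIP repressor that competes with Dbp for the D-box, stood at 0.84, -0.53, 0.24 and -0.04, a difference of -1.37 with another probe at -1.40.

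Arntl, the activator at the centre of the clock, had levels of 0.01 on sham/PBS, -2.18 on ORX/PBS, -0.56 on sham/PPE and -2.36 on ORX/PPE. Both ORX arrays were below both sham arrays, with a 4.56-fold lower signal under PBS (-2.19, and -1.80 under PPE), and 2 other probes had a median of -2.33. Npas2, which can stand in for Clock, was dim at -4.65 and -6.40 on the PBS arrays, and its difference of -1.76 was -0.68 with normexp. Clock itself was at -0.30 and Rora at 0.06. The hour at which each pool was collected is not given in the sources used here, so castration and hour of sampling cannot be told apart for these genes.

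**Figure D2:**
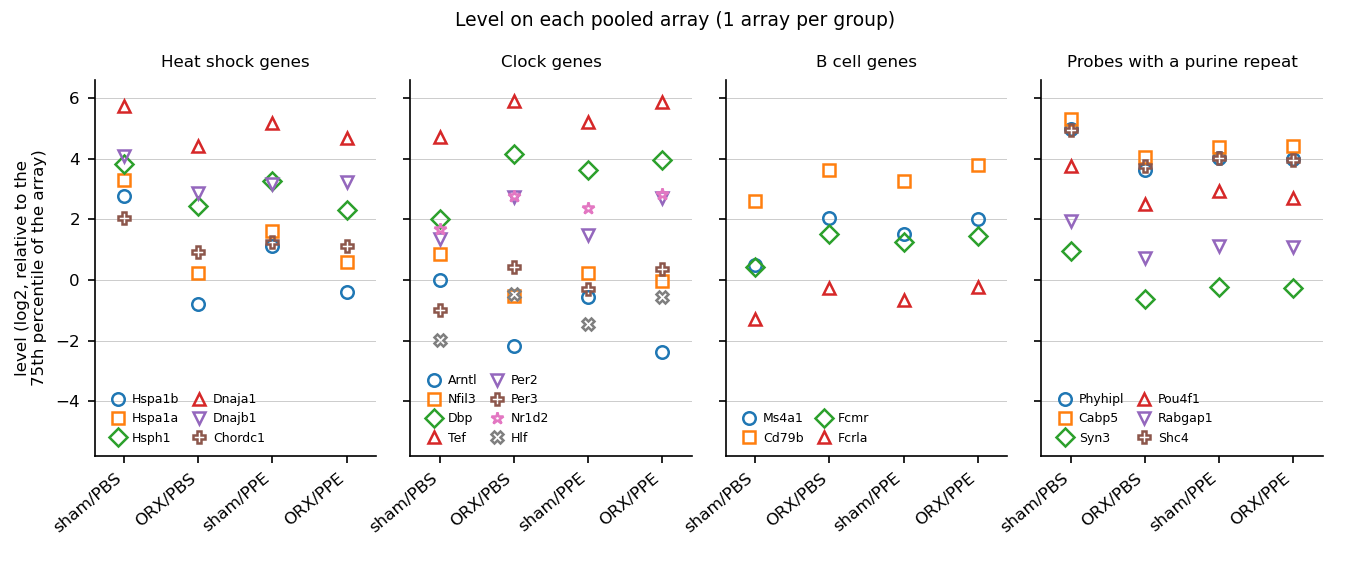
Points are the level of a gene (log2, relative to the 75th percentile of the array) on each of the 4 pooled arrays, in 4 panels for heat shock genes, clock genes, B cell genes and genes whose probe holds a purine repeat. Arntl is low and Per2 high on both ORX arrays, while the B cell genes differ from the other 3 arrays mainly on sham/PBS and the repeat probes are high there alone.

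Genes that glucocorticoids or fasting induce were lower in part. Of 25 measured, 4 were lower and 0 higher, with a median of -0.26 against 0.00 under PPE. ORX/PBS was the lowest of the 4 arrays for 15, and for 22.3% of all genes. Pck1, the gluconeogenic enzyme, had levels of -0.64 on sham/PBS, -2.65 on ORX/PBS, -0.35 on sham/PPE and -1.83 on ORX/PPE, a difference of -2.0, and of -1.48 under PPE. Angptl4, a secreted inhibitor of lipoprotein lipase, stood at 4.55, 2.92, 4.27 and 3.84, a 3.11-fold lower signal, and Pdk4, the kinase that shuts off pyruvate dehydrogenase, at 0.75, -0.65, 0.55 and 0.51. For Angptl4 and Pdk4 the ORX/PBS array was the low one and the other 3 lay closer together. Cdkn1a, the cell cycle inhibitor p21, stood at 1.97, 0.55, 1.74 and 1.35, a difference of -1.42, with 2 other probes at a median of -0.77. The sulfotransferase Sult1a1 was the highest member at 0.82.

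The same genes appeared in the list of fatty acid oxidation, where 3 of 21 members were lower, 0 were higher and the median was -0.29. Beside Angptl4 and Pdk4 these were Acot1, a cytosolic thioesterase induced by Ppara, with levels of 3.20, 2.19, 2.74 and 2.92 and a difference of -1.0. ORX/PBS was the lowest array for 12 of the 21, against 22.3% of all genes. In the opposite branch, 1 of 13 lipogenesis genes was higher and 0 were lower. It was Thrsp, a regulator of fatty acid synthesis, with levels of 0.27 on sham/PBS, 1.55 on ORX/PBS, 0.87 on sham/PPE and 0.27 on ORX/PPE. Its difference of 1.28 was 1.39 at another probe and turned to -0.60 under PPE.

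Genes of steroid reception and androgen action differed little. Of 20 measured receptors and enzymes 0 passed 2-fold, with a median of 0.10. The oestrogen receptor Esr1 and the glucocorticoid receptor Nr3c1 were both at 0.28, and Hsd11b1, which regenerates active glucocorticoid, was at 0.63. Akr1c14, a 3alpha-hydroxysteroid dehydrogenase that takes androgens as substrate, stood at 1.28 on sham/PBS, 2.02 on ORX/PBS, 1.28 on sham/PPE and 2.05 on ORX/PPE. Both ORX arrays were higher, by 0.74 under PBS and 0.77 under PPE. Akr1c18, which breaks down progesterone, stood at -2.89, -3.79, -2.13 and -4.62 in that order and was thus lower on both ORX arrays, by -0.90 and -2.49.

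Of 24 measured genes known as androgen responsive in other tissues, 2 were lower, 0 were higher and 19 lay below 0, with a median of -0.11 and one of -0.08 under PPE. Avpr1a, the vasopressin V1a receptor, differed by -1.12 under PBS and -1.20 under PPE, or -0.99 and -1.0 with normexp. Rhox5, an X-linked homeobox gene that androgen induces in testis and epididymis, differed by -1.03 and -1.30, with another probe at -0.22 under PBS. It was dim, and with normexp its differences were -0.50 and -0.52, so both calls were lost. Sord, sorbitol dehydrogenase, was the highest member at 0.59. The hormone response element core AGAACA, searched on both strands, stood in 23.3% of the 146 lower genes with a promoter and in 15.8% of the 57 higher ones. It stood in 21.3% of all genes in the table and 17% of the measured ones. Other motifs were also more frequent in the lower genes than in the measured ones. These were the heat shock element (22.6% against 14.6%), the ROR core (25.3% against 16.4%) and the rare D-box (2.05% against 1.06%). The E-box was not, at 10.3% against 10.2%. Major urinary protein genes, which androgen and growth hormone induce in liver, were dim: 6 of 10 measured were lower, with a median of -1.24 that normexp brought to -0.55. Mup19 had levels of -3.10, -4.56, -1.76 and -5.00 on sham/PBS, ORX/PBS, sham/PPE and ORX/PPE, and Mup4 levels of -4.41, -5.59, -3.07 and -5.66. Both were lowest on the ORX arrays, with PBS differences of -0.89 and -0.53 under normexp, and as the cluster's genes are near-identical, the probes may report each other's transcripts.

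Lymphocyte and antigen presentation genes stood higher in ORX/PBS, and for most of them sham/PBS was the lowest of all arrays. Of 21 B cell genes 4 were higher, against 0.427% of all genes, 0 were lower and 19 lay above 0. Their median was 0.61 (0.27 under PPE), and sham/PBS was the lowest array for 19, against 32.2% of all genes. Ms4a1, which encodes CD20, had levels of 0.51 on sham/PBS, 2.06 on ORX/PBS, 1.51 on sham/PPE and 2.0 on ORX/PPE, a 2.92-fold difference, with another probe at 0.96 on the log2 scale. Cd79b, a signalling chain of the B cell receptor, stood at 2.59, 3.61, 3.25 and 3.78, and Fcmr, the IgM receptor, at 0.42, 1.53, 1.25 and 1.44. Fcrla, a B cell Fc receptor-like protein, stood at -1.28, -0.26, -0.66 and -0.23, and its difference of 1.02 was 0.88 with normexp. How far the share of B cells in each pool bears on these values was not tested. In each of the 4 genes the sham/PBS array was low and ORX/PBS lay near ORX/PPE, with sham/PPE between. The tetraspanin Cd37 was the lowest member at -0.25, while 2 other probes of it had a median of 0.77.

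MHC class II genes had 0 of 11 members past 2-fold, 10 above 0 and a median of 0.57 (0.21 under PPE), from the transactivator Ciita at -0.10 to H2-Oa at 0.97. T cell genes had 1 of 31 higher, 27 above 0 and a median of 0.38. The higher one was Cd8b1, the CD8 beta chain, at -0.59, 0.47, 0.22 and 0.28 on sham/PBS, ORX/PBS, sham/PPE and ORX/PPE, and the checkpoint receptor Pdcd1 was the lowest at -0.96, dim at -4.35 and -5.31. NK and cytotoxic genes had a median of 0.40 (0.02 under PPE), with ORX/PBS the highest array for 18 of 22, against 20.2% of all genes. Their only call was the granzyme Gzmk, which was dim, with differences of 1.23 under PBS and 1.35 under PPE that normexp brought to 0.27 and 0.17. Proliferation genes, which dividing lymphocytes share with other cells, had 24 of 28 members above 0, 0 past 2-fold and a median of 0.27.

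Myeloid lists leaned the same way. Alveolar macrophage genes had 2 of 24 members higher and a median of 0.36, with sham/PBS the lowest array for 20, against 32.2% of all genes. The 2 were the eosinophil-associated ribonucleases Ear1, at 1.0, 2.27, 2.06 and 2.32, and Ear2, at 3.4, 4.41, 4.27 and 4.51, close relatives whose probes may share transcripts. The scavenger receptor Marco was the lowest member at -0.25, and it separated the agents instead, at 0.58 and 0.33 on the PBS arrays and 2.38 and 2.63 on the PPE arrays. Monocyte and interstitial macrophage genes had a median of 0.35 under PBS and -0.02 under PPE, with 0 of 23 past 2-fold, from Lyz2 at -0.15 to Cd163 at 0.79.

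Neutrophil genes had 2 of 21 members higher and a median of 0.25, against -0.71 under PPE, where 3 of 23 were lower. S100a8, a calprotectin subunit, had levels of 2.38 on sham/PBS, 3.50 on ORX/PBS, 4.74 on sham/PPE and 3.82 on ORX/PPE. The stefin Stfa2l1 stood at -2.70, -1.56, -0.63 and -1.52, with a PBS difference of 1.14 that normexp brought to 0.82. For both genes sham/PBS was the lowest array, sham/PPE the highest and the ORX arrays lay between. Of 14 eosinophil, mast cell and basophil genes 3 were higher, the mast cell carboxypeptidase Cpa3 by 1.38, the chymase Cma1 by 1.08 and Ear6 by 1.1, all dim, and with normexp these were 0.51, 0.78 and 0.77. The basophil protease Mcpt8 was the lowest at -0.74.

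Airway epithelial lists leaned the opposite way without a call. All 29 measured ciliated cell genes lay below 0, from the master regulator Foxj1 at -0.56 to Tppp3 at -0.09, with a median of -0.31. Sham/PBS was the highest array for all 29, against 29.2% of all genes, and under PPE their median was 0.20. Foxj1 had levels of 3.07 on sham/PBS, 2.51 on ORX/PBS, 2.33 on sham/PPE and 2.49 on ORX/PPE, so the sham/PBS array alone was high. Club cell genes had 15 of 17 below 0 and a median of -0.22, with the secreted Bpifa1 lowest at -0.91 and -1.40 under PPE, and goblet cell genes had 9 of 10 below 0 and a median of -0.21. Endothelial, smooth muscle and fibroblast lists had medians of -0.02, -0.02 and -0.01. In the endothelial list Gja5, the connexin of arterial endothelium, was lower by -1.49, with levels of 1.1, -0.39, 0.34 and -0.31, while 2 other probes of it had a median of -0.09. Its reported probe holds a GT repeat, a feature described below.

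Ribosomal protein genes had 76 of 80 members above 0, 0 past 2-fold and a median of 0.19. Sham/PBS was the lowest array for 74 of 79 measured on all arrays, against 32.2% of all genes. Respiratory chain genes had 68 of 81 above 0 with a median of 0.09, and 13 reference genes had a median of 0.05. Centring on the median in place of the 75th percentile would add 0.07 to each of these values. Cardiac muscle genes, which mark heart or pulmonary vein muscle in lung samples, had 0 of 21 past 2-fold and a median of -0.30, against -1.89 under PPE.

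**Figure D3:**
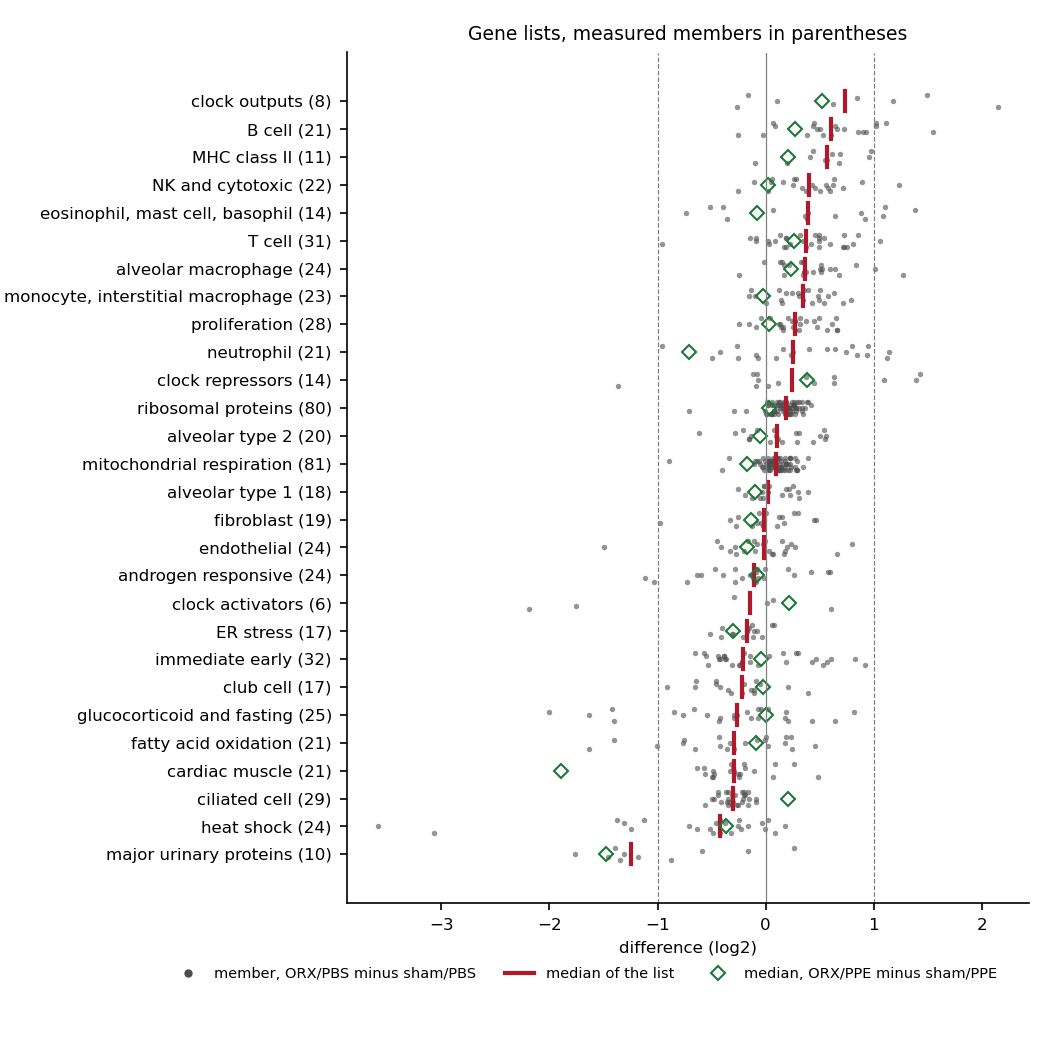
Grey points are the measured members of 28 gene lists, with ORX/PBS minus sham/PBS on the x axis (log2), red bars the list medians and green diamonds the medians of ORX/PPE minus sham/PPE; dashed lines mark 2-fold. Of the lists drawn, which were picked after their values were seen, clock outputs, B cell and MHC class II genes have the highest medians (0.73, 0.61 and 0.57), major urinary proteins and heat shock genes the lowest (-1.24 and -0.42), and the ciliated list changes side between the 2 agents.

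Matrix and protease genes gave a few large differences. Spon2, a secreted matrix protein and pattern recognition factor, had levels of 2.22 on sham/PBS, -0.76 on ORX/PBS, 1.35 on sham/PPE and -0.61 on ORX/PPE. Both ORX arrays were below both sham arrays, by 7.89-fold under PBS (-2.98) and by -1.96 under PPE. Of 21 ADAMTS proteases 3 were lower and 0 higher, against 0.983% and 0.427% of all genes. Adamts4, an aggrecanase, stood at -1.69, -3.91, -2.26 and -3.25, a difference of -2.22 that was -1.53 with normexp and -0.65 at another probe. Adamts15 stood at 2.52, 1.30, 2.35 and 2.16, with ORX/PBS alone low, and Adamts17 differed by -1.23 with 3 other probes at a median of -0.61. Matrix metalloproteinases had 1 of 17 higher, the dim Mmp13, whose difference of 1.12 was 0.28 with normexp. Their median was 0.35, or 0.06 with normexp, and 11 of 13 cathepsins lay above 0 with a median of 0.29, or 0.21 with normexp. Collagens and elastic fibre genes had 0 of 40 and 0 of 22 past 2-fold, with medians of -0.10 and 0.02.

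Of 43 serpins 2 were lower, against 0.983% of all genes, and 0 higher. They were Serpina3i at -1.64 and Serpina3f at -1.16, both from a cluster of near-identical inhibitors. Both were also lower under PPE, at -1.81 and -1.19. With normexp these were -0.91 and -0.88 under PBS, which ended both calls, and -1.05 and -0.89 under PPE. The list of cystatins and stefins had 2 of 22 members higher, Stfa2l1 and Cst13. Cst13 was dim and 1.13 higher, or 0.17 with normexp, and neither call held under normexp. Members were matched by name, so the 22 also count Cstf1, Cstf2, Cstf2t, Cstf3 and Cstad, which are not cystatins or stefins. The neutrophil-attracting chemokine Cxcl5 had the largest difference of all, with levels of -1.70 on sham/PBS, -5.39 on ORX/PBS, -2.03 on sham/PPE and -4.09 on ORX/PPE. It was a 12.8-fold lower signal (-3.68), or -2.12 with normexp, and -2.05 under PPE. The other 18 measured genes of the CXC list were within 2-fold.

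The remaining genes at the extremes were mostly dim, and normexp brought most of them within 2-fold. Among the 20 lowest, Rptn, Kcnb2, Tmem252, Best3, Mup21 and Arsi had differences of -2.12 to -1.69, and with normexp -0.88 to -0.67. Among the 20 highest, Nr5a2, Colec10, Galnt14, Hoxc4, Nat8 and Dclk3 had differences of 1.31 to 1.66, and with normexp 0.31 to 0.83. Larger values were kept by Tspan4, a tetraspanin of migrating cells, at 2.81, 4.18, 3.41 and 4.08 on sham/PBS, ORX/PBS, sham/PPE and ORX/PPE (1.37, and 1.33 with normexp), and by Grp, a neuroendocrine peptide, at -2.30, -0.79, -1.90 and -1.49 (1.5 and 1.2). Rab3c, a vesicle GTPase, was at 1.36 and 1.03, and Tex11, a meiotic gene, at 1.58 and 1.31 with another probe at 0.13. Of the genes named by the rule, 4 of the 20 lowest and 2 of the 20 highest are known only by clone, locus or receptor numbers. Of all called genes 61 had another measured probe, which lay on the same side for 56 and past 2-fold for 16.

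A gene well above background on 1 PBS array only has a bound rather than a difference. Such bounds passed 2-fold for 33 genes higher in ORX/PBS and 61 higher in sham/PBS, and 0 of them passed it with normexp. Examples are Rasl10b and Ctse, at least 3.51-fold and 3.20-fold higher in ORX/PBS, and Asxl3, at least 3.50-fold lower.

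A group of the lower genes shared a feature of the probe. The probes of 42 of the 191 lower genes hold a repeat of GA, in 4 or more copies, or of GAA, in 3 or more copies, on the strand printed on the array. This pattern was seen in the differences first and the repeats were defined after, so it is a description, and its genes below were chosen after their values were seen. Stretches of 30 bases from 7 of the 60-base probes are printed 5′ to 3′ as in the deposited files, with the repeat in capitals, the first 5 with GA and the last 2 with GAA.
Phyhipl: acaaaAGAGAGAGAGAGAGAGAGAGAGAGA
Cabp5: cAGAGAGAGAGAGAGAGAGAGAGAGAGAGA
Pou4f1: agaaagaaAGAGAGAGAGAGAGAaatgtgg
Syn3: aaagagagagaaaagGAGAGAGAGAGAcag
Rabgap1: gagtgagtcAGAGAGAGAGAGgaggaaaac
Trpm1: agaagaaaAAGAAGAAGAAGAAagaggaag
Notch1: gcaacagtGAAGAAGAAGAAGAtgcacctg

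The capitals cover 25 bases in Phyhipl, 29 in Cabp5, 15 in Pou4f1, 12 in Syn3 and Rabgap1, and 14 in Trpm1 and Notch1. Phyhipl had levels of 4.96 on sham/PBS, 3.64 on ORX/PBS, 4.02 on sham/PPE and 4.0 on ORX/PPE. Cabp5 stood at 5.31, 4.04, 4.40 and 4.43, and Pou4f1 at 3.76, 2.51, 2.93 and 2.7. Phyhipl, Cabp5 and Pou4f1 are best known from neurons and retina. Their probes were high on sham/PBS, while the other 3 arrays lay closer together, with ORX/PBS the lowest of them. The same held for the synapsin Syn3, at 0.97, -0.62, -0.21 and -0.26, and for Rabgap1, at 1.96, 0.74, 1.13 and 1.1.

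The homeobox gene Rhox3a and the surrogate light chain gene Vpreb2, among the 20 lowest genes at -2.01 and -1.70 (-1.57 and -1.12 with normexp), also have such a probe. Over all measured genes, 29 had a probe with a GA repeat of 10 bases or more. Of these 23 (79.3%) were lower, 28 lay below 0 and the median was -1.26, or -1.20 with normexp, while under PPE 0 passed 2-fold and the median was -0.03. Sham/PBS was the highest array for 28 of the 29. The 58 genes with a GA repeat of 8 or 9 bases had a median of -0.11 and 7 lower, and the 93 with a GAA repeat one of -0.36 and 12 lower. Repeats of CT, the complement, went the other way, with a median of 0.36 over 28 genes with 10 bases or more, 26 of them above 0 and sham/PBS the lowest array for 23. Cmtm2b, among the 20 highest genes at 1.69 (0.77 with normexp), is 1 of those 28. CA repeats had a median of -0.22 and GT repeats one of 0.07, against -0.18 and 0.29 under PPE.

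**Figure D4:**
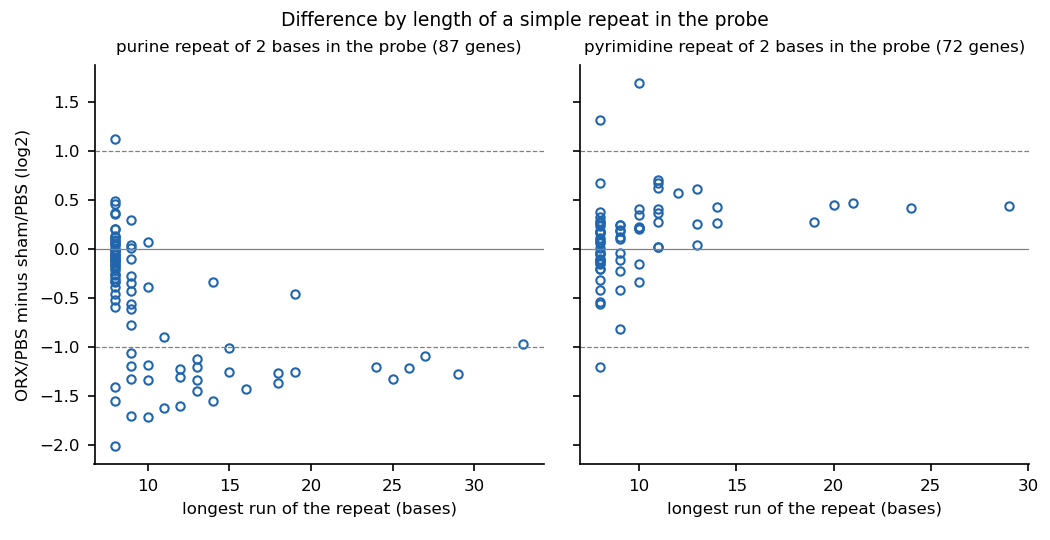
Points are genes by the longest run of a 2-base repeat in their probe (x axis, bases) and by ORX/PBS minus sham/PBS (y axis, log2), for the purine repeat of G and A on the left (87 genes) and the pyrimidine repeat of C and T on the right (72 genes); dashed lines mark 2-fold. From 10 bases on, 28 of 29 purine repeats lie below 0 and 26 of 28 pyrimidine repeats above it.

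Other probes of the same genes mostly lay near 0. For 18 of the 42 lower genes with a repeat another probe without it was measured, and those probes had a median of -0.08, from -1.59 to 0.40, with 1 past 2-fold, against a median of -1.24 for the genes as reported. Notch1, the signalling receptor, had another probe at -0.09, Syn3 4 others at a median of -0.02, Phyhipl 1 at -0.20 and Rabgap1 1 at -0.18. For 28 lower genes without a repeat the other probes had a median of -0.65 and 10 passed 2-fold. Of the 49 lower genes at or above the median level 28 hold a repeat. Without the 180 genes whose probe holds a GA or GAA repeat, 82 genes were higher and 149 lower, 0.774% of 19247. None of the clock, heat shock, B cell, T cell or MHC class II genes is among the 180, and of members of other lists that passed 2-fold only Mmp13 and the retinol receptor Stra6, at -1.09, are. This count covers GA and GAA repeats only. CT, CA and GT repeats were not counted in the lists, and CT repeats went the other way, so the count does not bear on lists that stood higher. Among called members of lists, Gja5 has a probe with a GT repeat and Ighg3 one with a CA repeat, each of 8 bases or more. The cause of the repeat difference was not tested.

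Castration under PPE used other arrays, and shared a minority of the calls. Among genes above background on all 4 arrays, 17 were lower under both agents, 10.3% of the 165 lower under PBS and 8.59% of the 198 lower under PPE. Over all genes on the 4 arrays 1.05% were lower under PPE. Of the higher genes 6 were shared, 7.41% of 81 and 14% of 43, where 0.228% of all genes were higher under PPE. With normexp 6 of the 17 stayed past 2-fold under both agents, namely Cxcl5, Spon2, Arntl, Hspa1b, Pck1 and Syt10, and of the 6 higher genes 1 did, Per2. Over the 18826 genes the differences of the 2 pairs correlated with a Pearson r of 0.200 and a Spearman rho of 0.160, across genes, which are not independent replicates. Lower under both were Cxcl5, Spon2, Arntl, Serpina3i, Hspa1b, Pck1, Mup19, Syt10, Mup4, Serpina3f, Avpr1a, Sult1b1, Tacr1, Pramel7 and, at smaller values, Rhox5, Hspa1a and Gmnc. Sult1b1, a sulfotransferase, was at -1.11 and -1.29, or -0.48 and -0.53 with normexp. Tacr1, the substance P receptor, was at -1.13 and -1.08, or -0.74 and -0.59. Gmnc, a regulator of ciliogenesis, was at -1.36 and -1.01, or -1.08 and -0.66, and Pramel7 at -1.27 and -1.04, or -0.48 and -0.28. Higher under both were Per2, Gzmk and Entpd8, the last at 1.08 and 1.96 (0.75 and 0.98 with normexp), with 3 genes known by clone or locus numbers.

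**Figure D5:**
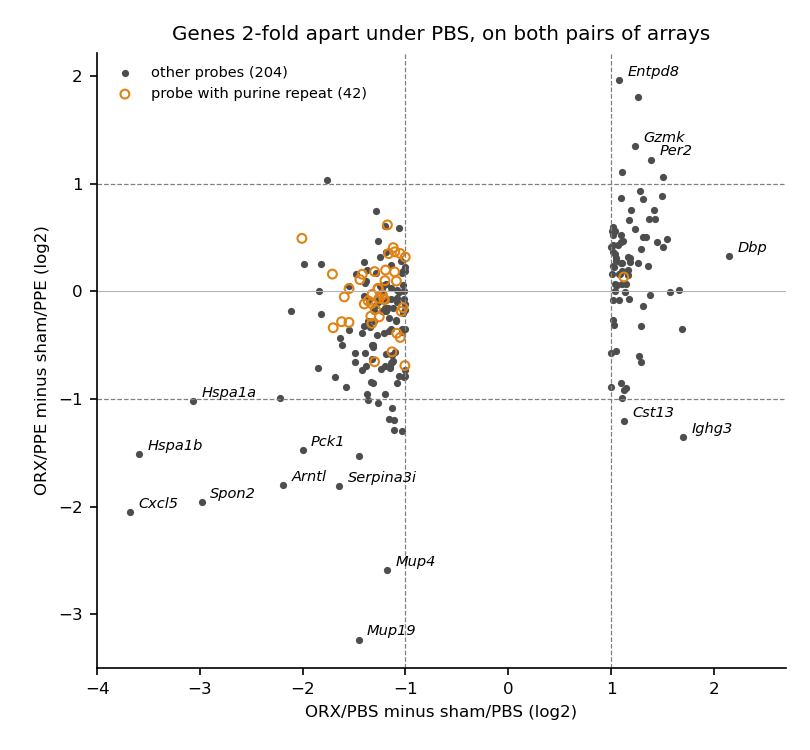
Points are the genes past 2-fold under PBS and above background on all 4 arrays, with ORX/PBS minus sham/PBS on the x axis and ORX/PPE minus sham/PPE on the y axis (both log2); open orange circles have a probe with a purine repeat and dashed lines mark 2-fold. Spon2, Arntl and Hspa1b lie low on both axes and Per2 high on both, while the repeat probes lie near 0 on the y axis.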

How the data were processed

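Lung total RNA was extracted in TRIzol, cleaned on Promega columns and amplified from low input with Cy3, per the labels' protocols. Feature Extraction 10.7.1.1 read arrays of design 074809, per the file headers, while the submitters' processing notes name version 9.5.1.1. Per the file headers, spots carry a processed intensity (linear, background subtracted, not scaled between arrays), raw mean and background intensities for normexp, and flags of 0 or 1. The series' value table, used as an alternative, holds linear intensity values as deposited, with scaling not stated.

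Control and outlier spots were left out, spots of a probe averaged, log2 taken and each array's 75th percentile subtracted. Of 56605 probes of 60 bases, RefSeq (GRCm38.p6) named 32994 through their accession, 10224 through a symbol and 520 through an older symbol, 1596 kept the file's name and 11271 had none. The brightest unsaturated probe stood for each of 26283 genes. A gene measured on 1 array only got a bound, the bright signal over the dim array's own value or its lowest signal well above background, whichever was larger. Promoters came from RefSeq.

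The comparison, its gene lists and the genes named were chosen with earlier results of these data known. The naming rule took the 20 highest and 20 lowest differences, the 8 highest and lowest bounds, members of a list past 2-fold (up to 8 a direction) with its highest and lowest, any clock, heat shock or steroid receptor gene, 15 genes past 2-fold under both agents and all in opposite directions. Genes with a clone, locus or receptor number were counted only. Alternatives were normexp (offset 50, limma 3.58.1, R 4.3.3), quantile normalization, median centring, the value table, no filter, a filter on all 4 arrays, the mean of a gene's probes, a 1.5-fold threshold and outlier spots kept. Leaving out probes with a GA or GAA repeat was chosen after seeing the data. All else used Python 3.11.15 (pandas 2.3.3, numpy 2.4.6, matplotlib 3.10.9). The code for the calls was run on planted differences with the noise of replicate spots only. That checks the code and says nothing of variation among mice or arrays. Some measured genes are not reported here.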

Additional observations from a re-analysis of the deposited data

Results flagged for a closer look

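For 2 nameable genes ORX and sham lungs were at least 2-fold apart in opposite directions under the 2 agents, and the difference between the agents was not tested. Ighg3, an immunoglobulin heavy chain constant gene, differed by 1.70 under PBS and by -1.36 under PPE, with levels of -3.08 on sham/PBS, -1.38 on ORX/PBS, -0.88 on sham/PPE and -2.24 on ORX/PPE. Its probe holds a CA repeat of 8 bases or more. Of the 130 genes with such a probe it was the only 1 called higher under PBS, and their median was -0.22. Cst13, a cystatin, differed by 1.13 under PBS and by -1.20 under PPE, but it was dim, at -5.94, -4.81, -4.62 and -5.82 in that order. With normexp its differences were 0.17 under PBS and -0.52 under PPE, so both calls were lost. In both genes the sham/PBS array was the lowest and the sham/PPE array the highest. An olfactory receptor lower under PBS and higher under PPE is counted and not named.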

How the results depend on the processing

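The counts of 83 higher and 191 lower genes moved by more than 1.5 times under 3 settings. Normexp gave 27 and 67, no filter on dim genes 825 and 1041, and a 1.5-fold threshold 626 and 900. Under the other settings they ran from 79 to 109 higher and from 149 to 192 lower, the lowest of the lower counts without probes that hold a GA or GAA repeat. Quantile normalization and the value table each gave 96 and 174. Scaling moved the median of all genes by at most 0.07. The B cell median stayed between 0.47 and 0.68, that of clock outputs between 0.67 and 0.80, of clock repressors between 0.13 and 0.31, of MHC class II between 0.47 and 0.64, of T cells between 0.22 and 0.44, and of heat shock genes between -0.45 and -0.36. Medians of clock activators, from -0.26 to 0.01, and of CXC chemokines, from -0.01 to 0.10, crossed 0. Of 82 named genes past 2-fold, 50 stayed past it with normexp, 70 with the mean of a gene's probes, and 79 each with median centring, quantile normalization and the value table. No paired analysis was possible because each group is 1 array and the labels give no replicate numbers, and for the same reason no replicate could be left out. The number of arrays limits the precision, and dim signal over background limits the calls of the dimmest genes, where 0 of 38 higher and 0 of 95 lower ones passed 2-fold with normexp.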
